A study of Homo sapiens with 42 samples.

Results

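Nuclear RNA, depleted of rRNA, of K562 cells exposed to KCl for 1 h was compared with nuclear RNA of untreated cells, as set by the treatment and fraction given for each library. The comparison uses 6 of the 42 libraries of the study, 3 treated and 3 untreated. K562 is a human erythroleukaemia line that carries the BCR-ABL1 fusion, and the study asked how the kinase inhibitor imatinib and other agents affect transcription past gene ends. KCl was added to 110 mM, which makes the medium hyperosmotic, and all cells were harvested together, so the untreated cells (CTRL) stood as the control for each time point. For comparison the report also uses 3 nuclear libraries of cells given JTE-607 (JTE) at 5 µM for 1 h, a compound that inhibits the endonuclease CPSF3, and 6 poly(A)-selected mRNA libraries of KCl-treated and untreated cells. The 3 nuclear libraries of imatinib at 1 µM for 1 h are used to set alternative level groups and an alternative minimum level. These libraries and the nuclear libraries of imatinib at 1 µM for 18 h also entered the main fit. The model is 1 cell line, and the nuclear fraction was taken during a fractionation of whole cells. The labels and the study's methods name different culture media and different rRNA removal kits.

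When salt outside a cell rises, water leaves it and the nucleus shrinks. Cells answer through stress-activated kinases, which switch on immediate early genes, and, more slowly, through the factor NFAT5, which raises transporters and enzymes that load the cell with compatible osmolytes. Osmotic stress is also known for readthrough, in which RNA polymerase II passes the polyadenylation site of a gene and goes on into the DNA behind it, so that genes lying there can gain reads.

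The 6 libraries held 19251170 to 22588484 counts each, as read pairs that fell in exons of one gene. Read counts were given as CPM, counts scaled to library size with TMM factors. Genes of the K562 line were present, with GATA1 at 184 to 233 CPM, TAL1 at 157 to 230 CPM and HBG1 at 712 to 974 CPM. Of the nuclear RNAs, MALAT1 stood at 10066 to 17109 CPM and NEAT1 at 1236 to 1981 CPM, while RN7SK was listed at 0. Of the markers of other lineages, MS4A1 and KRT5 were at 0 and CD3E, COL1A1 and COL3A1 were under 1 CPM, but EPCAM (55.6 to 79.7 CPM) and CD3D (2.42 to 6.02 CPM) had reads in every library. CD8A was at 0 to 0.0495 CPM in CTRL and 0.484 to 0.743 CPM after KCl and was called higher (log2 fold change 4.09). The mitochondrial genome took 4.40% to 5.54% of the counts after KCl and 4.93% to 6.21% in CTRL, lower after KCl in each of the 3 pairs, and the exact permutation test (two-sided, smallest p possible 0.1) gave p = 0.4. Libraries with the same replicate number deviated together, so the numbers were taken as pairs where values of single pairs are given. The main fit and the permutation test did not use the pairs.

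KCl changed nuclear counts of 5227 of 21929 genes tested, where a call needed an adjusted p below 0.05 from edgeR's quasi-likelihood test and a change of over 0.6 on the log2 scale. Of these 3362 were higher (15.3% of genes tested) and 1865 lower (8.5%), while the median over all genes tested was 0.02. The higher genes came from the bottom of the range: 2639 of them, or 78.5%, had a mean CTRL level under 1 CPM, as did 30.9% of the genes tested and 74% of all genes listed, and 67 reached 10 CPM. Protein-coding genes made up 55.2% of the higher calls and 17.2% of the lower calls, against 62.7% of the genes tested. Among long non-coding RNAs 758 of 4196 tested were higher and 812 lower, and among pseudogenes 575 of 2747 were higher and 452 lower. Small RNAs outside the snoRNA class leaned down, with 34 higher and 129 lower of 451 tested.

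Few protein-coding genes that were well expressed before treatment were called. Of the 2339 with 100 CPM or more in CTRL, 4 were higher and 9 lower, and the median log2 fold change was 0.01. Of the 7498 with under 0.5 CPM, 1558 had enough reads to be tested, and 1096 were higher, which is 14.6% of all genes of that level. In the next bin, 0.5 to 1 CPM, 254 of 708 were higher. Because genes at the lowest level pass the count filter mainly through the group where they are high, shares are given over all genes of the bin. When the bins were formed on the nuclear libraries of cells given imatinib for 1 h, a grouping added after the data were seen, 1124 of 7559 genes under 0.5 CPM were higher (14.9%).

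**Figure D1:**
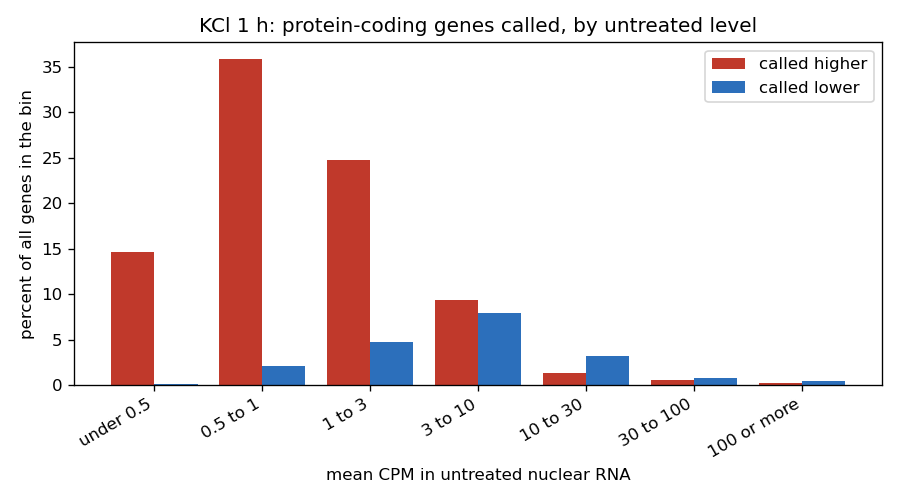
Percent of all protein-coding genes (y axis) called higher or lower in nuclear RNA after 1 h of KCl, by mean CPM in untreated nuclear RNA (x axis). Calls fall from 35.9% higher at 0.5 to 1 CPM to 0.171% at 100 CPM or more; bars are shares of all genes in the bin, of which only part could be tested under 0.5 CPM.

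Several immediate early transcription factors, which answer a stress without new protein synthesis, rose after KCl. Of 20 listed genes 18 were tested, 9 were higher (50% against 15.3% of all genes tested) and none lower, with a median log2 fold change of 0.82 against 0.02 for all genes. FOS, a subunit of the AP-1 factor, was at 3.66, 3.96 and 1.58 CPM in CTRL and 32.1, 31.6 and 17.9 CPM after KCl. Its partner gene FOSB was at 4.96, 2.82 and 1.88 CPM in CTRL and at 38.2, 39.9 and 25.8 CPM after KCl. In both genes the groups did not overlap, and the third library was the lowest of its group. The log2 fold change was 3.14 ± 0.33 (SE, adjusted p = 2.52e-06) for FOS and 3.42 ± 0.29 (adjusted p = 1.92e-07) for FOSB. JUN rose by 1.28 and JUNB by 0.78 on the log2 scale. NR4A2, an orphan nuclear receptor, rose by 1.54, and IER3, an early response gene that restrains apoptosis, by 1.92. EGR2, EGR3 and NR4A1 rose from low levels, and NR4A1 lost its call in 3 of the 6 fits that left out a library.

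The other 9 early genes tested were not called. ATF3, a stress factor that pairs with JUN, was at 21.3, 21.9 and 11.3 CPM in CTRL and 41.5, 63.7 and 18.5 CPM after KCl, with a log2 fold change of 1.18 ± 0.58 (adjusted p = 0.183). With the replicate block it was called, at 1.10 (edgeR's adjusted p = 0.0281). IER5 had 0.59 (adjusted p = 1.74e-04), just under the fold threshold. EGR1, a zinc finger factor, was at 148, 151 and 68.6 CPM in CTRL and 188, 118 and 89.1 CPM after KCl, so the groups overlapped. MYC had a log2 fold change of 0.15 (adjusted p = 0.634). FOSL1 went the other way, at -0.56, and 2 of the alternative fits called it lower. For the class 10 of the 18 genes were higher after KCl than after JTE in the direct contrast, where 10.7% of all genes were, and none was lower, where 5.24% of all genes were. FOS differed between both treatments by 4.51 on the log2 scale and SGK1 by 3.36. After JTE against CTRL, 0 of the 18 early genes were higher and 3 lower, with a median of -0.32. Of all 21929 genes tested, 332 were lower after JTE. The direct contrast therefore does not measure the rise after KCl alone.

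GADD45B, a stress sensor upstream of p38 and JNK kinases, rose more than any of these factors. It was at 1.83, 1.37 and 1.09 CPM in CTRL and 20, 18.6 and 16.6 CPM after KCl, a log2 fold change of 3.68 ± 0.22 (adjusted p = 4.2e-10). It was the only one of 14 tested GADD45, DUSP and MAPK feedback genes to be called. GADD45G, with 1 count over the CTRL libraries and 6 after KCl, had a log2 fold change of 2.29 (adjusted p = 0.152). KLF4, a zinc finger transcription factor, rose by 1.84. Among 8 genes of mRNA decay and growth restraint 4 were higher (50% against 15.3% of all genes tested): ZFP36L1 (1.11) and ZFP36 (0.62), which bind AU-rich mRNAs, and BTG1 (0.88) and TOB1 (0.64), which recruit deadenylases. ZFP36 lost its call in 1 of the fits that left out a library and TOB1 in 2.

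Of the osmolyte genes 3 of 8 were higher (37.5% against 15.3% of all genes tested). SGK1, a kinase that governs sodium channels and transporters, was at 6.56, 6.78 and 8.06 CPM in CTRL and 46.7, 33.8 and 35.0 CPM after KCl, and rose by 2.43 ± 0.16. SLC38A2, an amino acid transporter of hypertonic cells, was at 386, 305 and 209 CPM in CTRL and 915, 836 and 546 CPM after KCl, and rose by 1.35 ± 0.33 (adjusted p = 0.00815). The betaine carrier SLC6A12 rose from 0.0455 to 0.0893 CPM to between 0.511 and 0.871 CPM. The other 5 of 8 genes were not called, among them NFAT5 itself at a log2 fold change of 0.30, the inositol carrier SLC5A3 at 0.18, the taurine carrier SLC6A6 at -0.08 and the aldose reductase gene AKR1B1 at 0.05.

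**Figure D2:**
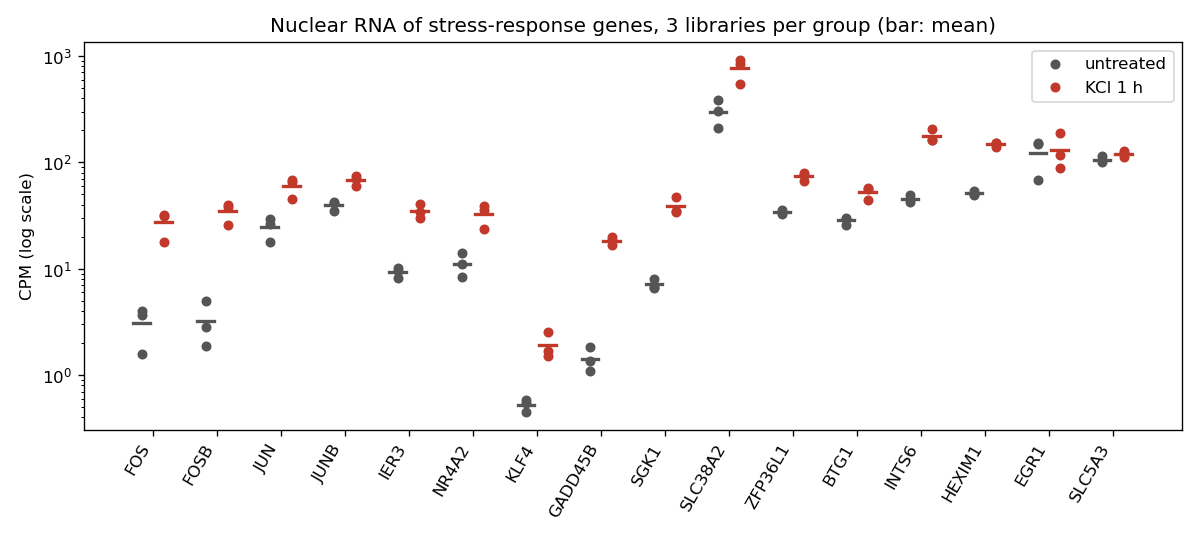
CPM in nuclear RNA (y axis, log scale) of 16 genes in the 3 untreated and the 3 KCl libraries, with a bar at the mean. FOS, FOSB, GADD45B and SGK1 do not overlap between the groups, while EGR1 does and SLC5A3 differs little.

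Outside these groups few listed genes were called. None of 16 erythroid, 23 cleavage and polyadenylation, 24 nucleolar ribosome biogenesis, 20 mitosis or 8 abundant nuclear RNA genes was called, and log2 fold changes ran from -0.33 (CPSF4) to 0.50 (RBBP6) for the cleavage factors. HSPA1L was the only heat shock gene called of 19, and lost its call in 3 of the fits that left out a library. DDIT3 and VLDLR were called higher among 15 ATF4 and integrated stress genes, with 0.82 and 2.33, a share of 13.3% against 15.3% of all genes tested. TNF, at 0.0893, 0 and 0.0495 CPM in CTRL, stood at 1.06, 1.21 and 1.55 CPM after KCl, and RELB was the other NF-kB gene called higher of 15, again 13.3% against 15.3%. The median of this list was 0.04. Members not called lay on both sides, with CXCL3 at -0.59 and CXCL2 at -0.50, and TNFAIP3 at 0.52 and NFKBIA at 0.40. CXCL3 was called lower in 5 of the alternative fits. HEXIM1, which holds the elongation kinase P-TEFb inactive, was at 53.9, 49.1 and 50.2 CPM in CTRL and at 153, 152 and 139 CPM after KCl, a rise of 1.54 ± 0.09.

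Of the 10 genes with the largest rises among those that reached 10 CPM, 8 lay within 50 kb behind an expressed gene on the same strand and the other 2 within 50 kb tail to tail, meaning end to end with it. Of 12740 tested genes under 10 CPM in CTRL, 46.9% lay within 50 kb in either way. Genes of lower level could have larger fitted rises. AMPD1, a muscle AMP deaminase, was at 0.0446, 0 and 0 CPM in CTRL and at 11.7, 10.5 and 16.9 CPM after KCl. It starts 8851 bases downstream of the annotated end of NRAS on the same strand. Over all libraries 1 read was counted in CTRL and 795 after KCl, a ratio of 842 with a 95% interval of 151 to 33307 for counting error only. It had no read in any JTE library. TBR1, a factor of the cortex, stood 4377 bases behind PSMD14, and rose from 0.0495 to 0.182 CPM to between 18.4 and 21.4 CPM. IQCN stood 5251 bases behind JUND and rose to between 25.3 and 43.3 CPM from at most 0.268 CPM. The upstream genes were not called: NRAS had a log2 fold change of 0.13, PSMD14 of 0.07 and JUND of 0.09.

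Of genes with no read at all in CTRL, PLA2G4F, 2065 bases behind VPS39, was at least 79.1-fold higher, and ADIG, 2334 bases behind RALGAPB, at least 39.2-fold, each taken against 3 counts over the group. IQCA1L stood 2341 bases behind ABCF2. WNT16, SLC6A4, ASB15, ADGRF2, OSBPL10, YAP1P1 and MYO1A were the other genes of the largest rises. The counting did not use strand, so the strand of the reads is unknown for every gene. Same strand and tail to tail describe the annotated positions of genes, not their reads. TBR1, SLC6A4, ASB15, ADGRF2, OSBPL10 and MYO1A also overlap another gene, so their reads may come from that gene. The limit of overlap also holds for FOSB, JUNB, IER3, NR4A1, SGK1, SLC38A2, BTG1, TOB1, HEXIM1, DDIT3, MIR223HG and MIR142HG.

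The last 30 bases of the canonical transcripts of 5 of these upstream genes are shown because the gene behind each lies past this end (GENCODE 44 on GRCh38, capitals mark AATAAA or ATTAAA). NEMP1 (chr12:57055643-57055672, minus strand) precedes MYO1A and BLMH (chr17:30248203-30248232, minus strand) precedes SLC6A4, PSMD14 (chr2:161411688-161411717, plus strand) precedes TBR1, and VPS39 (chr15:42158701-42158730, minus strand) precedes PLA2G4F. NRAS (chr1:114704469-114704498, minus strand) precedes AMPD1 and held neither motif in these bases. Of 12 upstream ends read in this way 7 held AATAAA and 8 either motif, and the ends of JUND, ABCF2 and STXBP5 also held neither.
NEMP1: attccaattttAATAAAagttttatagata
BLMH: cttttgAATAAAaactttgctaaatgagaa
PSMD14: acttacaaAATAAAatacatttacagtcta
VPS39: taaacctAATAAAgcaagaaaccaagccta
NRAS: aaaaactggaagttcttggcttagtcataa
Over 8692 expressed protein-coding transcripts, 59.2% held AATAAA in the last 30 bases and 73.3% either motif.

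A count of all protein-coding genes under 10 CPM that overlap no other gene was made by distance. Of those that start within 1 kb behind an expressed gene (10 CPM or more in CTRL), 24 of 44 were higher, of those at 1 to 5 kb 90 of 167, at 5 to 10 kb 59 of 126, at 10 to 50 kb 207 of 599, and beyond 50 kb 320 of 3556. As shares of all genes these were 54.5%, 53.9%, 46.8%, 34.6% and 9.0%. Genes tail to tail with an expressed gene had shares of 44.7%, 56.1%, 51.9%, 36.8% and 8.34% in the same bins. Beyond 50 kb on the same strand only 1023 genes were tested. Over tested genes only, which can enter through their KCl reads, the same-strand shares were 60%, 64.3%, 62.8%, 53.8% and 31.3%. Each set of bins uses 1 kind of distance, so genes beyond 50 kb on the same strand can lie nearer tail to tail. After JTE 61.4%, 36.5%, 15.1%, 11.4% and 3.97% of all genes in the same-strand bins were higher, so fewer were called beyond 1 kb.

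The direct contrast of KCl with JTE tested this difference gene by gene. Behind an expressed gene on the same strand, KCl was higher than JTE in 4 and lower in 5 of 44 genes within 1 kb, in 53 and 9 of 167 genes at 1 to 5 kb, in 46 and 5 of 126 genes at 5 to 10 kb, and in 167 and 10 of 599 genes at 10 to 50 kb. Beyond 50 kb it was higher in 241 and lower in 23 of 3556. Tail to tail, KCl was higher in 20 and lower in 13 of 94 genes under 1 kb, in 55 and 10 of 187 at 1 to 5 kb, in 50 and 5 of 133 at 5 to 10 kb, in 161 and 6 of 513 at 10 to 50 kb and in 229 and 18 of 3572 beyond. These counts are over all genes of the bin, and of all 58243 genes listed 2340 were higher and 1149 lower. Over tested genes only, on the same strand 43.4% were higher and 2.6% lower at 10 to 50 kb, and 23.6% and 2.25% beyond 50 kb. Tail to tail these shares were 52.6% and 1.96%, and 22.2% and 1.75%. Of all genes tested 10.7% were higher and 5.24% lower in this contrast. LINC01963, 10742 bases behind XRCC5, shows the case without a difference, with 16.6, 14.5 and 18.9 CPM after KCl and 17.6, 13.6 and 17.5 CPM after JTE.

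**Figure D3:**
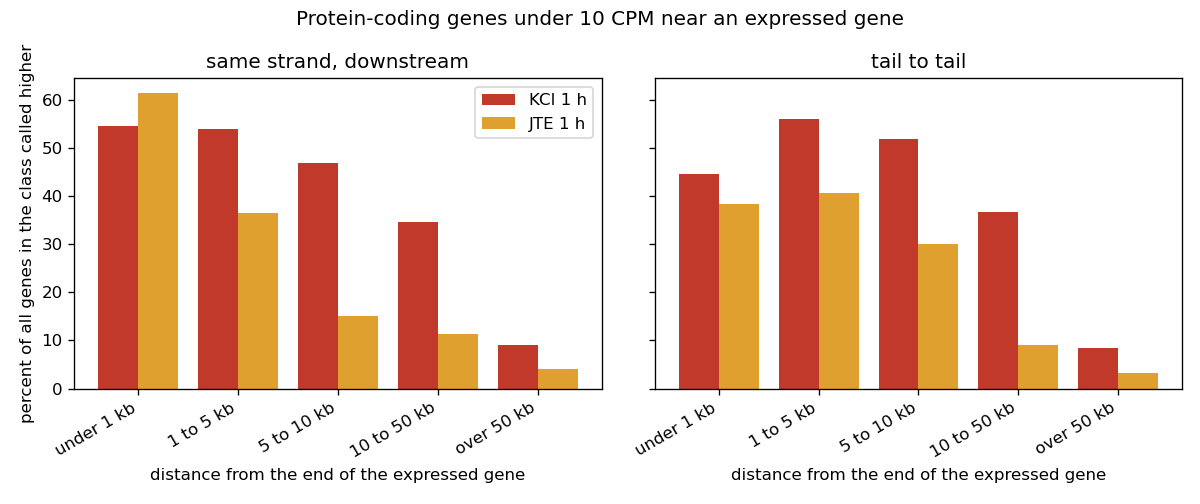
Percent of all protein-coding genes under 10 CPM (y axis) called higher after KCl or JTE against untreated, by distance (x axis) from the end of an expressed gene, on the same strand or tail to tail. KCl stays at 34.6% at 10 to 50 kb on the same strand, where JTE is at 11.4%.

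Of the 7498 protein-coding genes under 0.5 CPM, 2171 lay within 50 kb of an expressed gene on the same strand or tail to tail, and 909 of these were higher, or 41.9%. Of the 5327 that lay near neither, 187 were higher, or 3.51%. Of pseudogenes at 10 to 50 kb on the same strand 114 of 577 were higher, and beyond 50 kb 174 of 7053.

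Many of the lower calls were of genes that lie inside expressed genes. Of 1516 lower calls among non-coding RNAs and pseudogenes, 899 (59.3%, and 48.2% of all lower calls) were wholly inside 1 expressed protein-coding gene, as were 35.9% of the non-coding RNAs and pseudogenes tested. Of the nested genes with 0.5 CPM or more in CTRL, 850 of 2280 tested were lower and 72 higher, and the median log2 fold change was -0.62. Of non-nested genes of those classes 589 of 3222 were lower, with a median of -0.14. This grouping was added after the data were seen.

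The change differed by where in the host the gene lay, though far bins hold genes of long hosts only. Under 1 kb from the host's start 28 of 60 tested genes were lower, with a median log2 fold change of -0.68, a smaller fall than in the next bins. Within 1 to 5 kb of the host's start 139 of 236 tested genes were lower, with a median log2 fold change of -1.11, at 5 to 10 kb 136 of 239 with -1.07 and at 10 to 30 kb 331 of 634 with -1.01. At 30 to 100 kb 190 of 696 were lower with a median of -0.50. At 100 to 200 kb 19 of 269 were lower and 19 higher with a median of 0.08, and beyond 200 kb 7 of 146 were lower and 11 higher with 0.16. On a scale of log2(CPM + 0.1) the medians of the 3 pairs were -0.98, -0.96 and -0.95 at 1 to 5 kb and 0.07, 0.05 and 0.30 beyond 200 kb. The exons of the hosts did not share this: their medians ran from -0.01 to 0.10. The minimum of 0.5 CPM for nested genes was set on CTRL, 1 side of the comparison. With this minimum set on the nuclear libraries of imatinib for 1 h, 125 of 218 genes were lower at 1 to 5 kb, with a median of -1.04. Beyond 200 kb 6 of 137 were then lower and 12 higher, with a median of 0.19.

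Nested genes annotated on either strand had lower medians near the start than far from it, though the strand of the reads is unknown. Under 1 kb they were -0.50 on the host's strand and -0.78 on the other strand, with -1.0 on the host's strand and -1.18 on the other strand at 1 to 5 kb and of 0.12 and 0.20 beyond 200 kb. Hosts that span over 200 kb gave -0.77 at 1 to 5 kb over 5 genes, -1.09 at 5 to 10 kb over 6 genes and -0.45 at 10 to 30 kb over 39 genes. They gave -0.12 at 30 to 100 kb over 92 genes and 0.01 at 100 to 200 kb over 124 genes. In these hosts 23.1% of genes were lower at 10 to 30 kb and 9.78% at 30 to 100 kb, against 52.2% and 27.3% over all hosts. Whether distance or host length goes with the change was not tested. After JTE the medians over all hosts were -0.42 under 1 kb and -0.54, -0.53, -0.51, -0.38, -0.14 and -0.13 from 1 to 5 kb outward. In the direct contrast KCl was lower than JTE in 273 and higher in 27 of 1169 genes within 30 kb of the start, and lower in 12 and higher in 30 of 415 beyond 100 kb, where both shares (2.89% and 7.23%) were below those of all genes tested in this contrast (5.24% and 10.7%). Reads from host introns and from the nested gene itself cannot be told apart in these counts.

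Examples were taken by their level among the lower genes at 1 to 30 kb, after values were seen. SLC16A4-AS1, 18079 bases into SLC16A4 on the other strand, was at 21.2, 17.6 and 24.6 CPM in CTRL and 10.5, 9.85 and 9.68 CPM after KCl (log2 fold change -1.07 ± 0.13, adjusted p = 2.48e-06). ZEB2-AS1 in ZEB2 had -1.37 and NFATC2IP-AS1 in NFATC2IP -1.27. The 3 nested genes of the highest level within 30 kb, SNHG3 (-0.49), SNORA73B (0.14) and ZBED10P (-0.31), were not called.

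**Figure D4:**
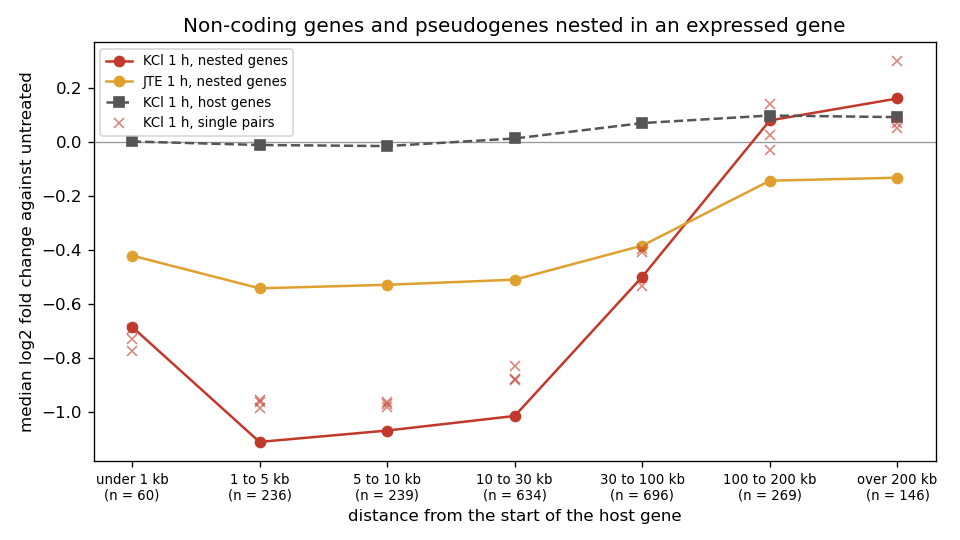
Median log2 fold change against untreated (y axis) of non-coding genes and pseudogenes inside an expressed protein-coding gene, by distance from the host's start (x axis), for KCl, for JTE and for the host genes' exons; crosses are the 3 KCl pairs on log2(CPM + 0.1). The KCl line stands at -0.68 under 1 kb and runs from -1.11 at 1 to 5 kb to 0.16 beyond 200 kb, while the hosts lie between -0.01 and 0.10.

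Of the 10 largest falls among genes with 10 CPM or more in the higher group, 7 were of long non-coding RNAs, 1 of a pseudogene and 2 of the protein-coding genes CLIP3 (-1.54) and EGLN2 (-1.43). MIR223HG, host of the myeloid microRNA miR-223, was at 177, 153 and 119 CPM in CTRL and 13.5, 18.8 and 7.11 CPM after KCl, a log2 fold change of -3.51 ± 0.57 (adjusted p = 6.41e-04). MIR142HG, host of a blood cell microRNA, was at 52.9, 55.9 and 69.3 CPM in CTRL and 11.3, 15.8 and 17.8 CPM after KCl. MRPL20-DT (-2.37) and ANKRD42-DT (-1.86) are divergent transcripts, and SNHG4 (-1.25), SNHG15 (-0.93) and SNHG20 (-1.39) are snoRNA hosts, while SNHG12 rose by 0.85. As classes, divergent transcripts had 36 higher (11.5%) and 57 lower (18.2%) of 313 tested and antisense transcripts 111 (13.6%) and 168 (20.6%) of 816. Intergenic transcripts named LINC had 152 (33.6%) and 36 (7.96%) of 452. Of all long non-coding RNAs tested 18.1% were higher and 19.4% lower, and of all genes tested 15.3% and 8.5%. SNORD3B-2, a copy of the U3 snoRNA gene, rose by 2.12, and its reads are uncertain because near-identical copies exist.

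Medians of protein-coding genes rose with gene length, over a small range. Among those with 10 CPM or more in CTRL, the median log2 fold change was -0.09 for genes under 2 kb and -0.08 for 2 to 10 kb. It was -0.05 for 10 to 30 kb, 0.03 for 30 to 100 kb, 0.11 for 100 to 300 kb and 0.13 over 300 kb. Lower calls were 0.87%, 3.23%, 1.53%, 0.872%, 0.374% and 0% in the same order. After JTE the medians were -0.15, -0.14, -0.08, 0.02, 0.07 and 0.08, against the same CTRL libraries. In the direct contrast of KCl with JTE they were 0.032, 0.036, 0.014, 0.001, 0.038 and 0.043, with no steady rise by length. The rise with length was thus not particular to KCl.

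The KCl response in nuclear RNA and in mRNA differed for 141 of 21095 genes, by the interaction test. Depth was uneven in this test: the mRNA KCl libraries held 19270518, 62953314 and 42474454 counts, and the mRNA CTRL libraries 17855236 to 19031221. With thinned counts 86 genes were called. Nuclear changes were more positive for 124 (0.588%) and more negative for 17 (0.0806%), and the fit with replicate blocks called 310. Leaving out 1 library gave 60 to 166 calls, the fewest without nuclear CTRL replicate 2. Pseudogenes made up 52.5% of them and 15.4% of the genes tested. INTS6, a subunit of the Integrator complex that ends transcription of small nuclear RNAs, was at 49.6, 42.1 and 45.0 CPM in CTRL and 204, 162 and 163 CPM after KCl in nuclear RNA. In mRNA INTS6 was at 50.2, 45.0 and 54.0 CPM and at 53.9, 58.4 and 75.1 CPM. INTS6 overlaps another gene, and the counts do not use strand. CLK4, a kinase of splicing factors, fell in nuclear RNA from 16.8, 15.2 and 17.9 CPM to 9.53, 8.55 and 6.82 CPM, while its mRNA log2 fold change was 0.34 (adjusted p = 0.236). FOS, FOSB and SGK1 did not pass this test, with changes in mRNA of 3.75, 3.45 and 2.34.

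**Figure D5:**
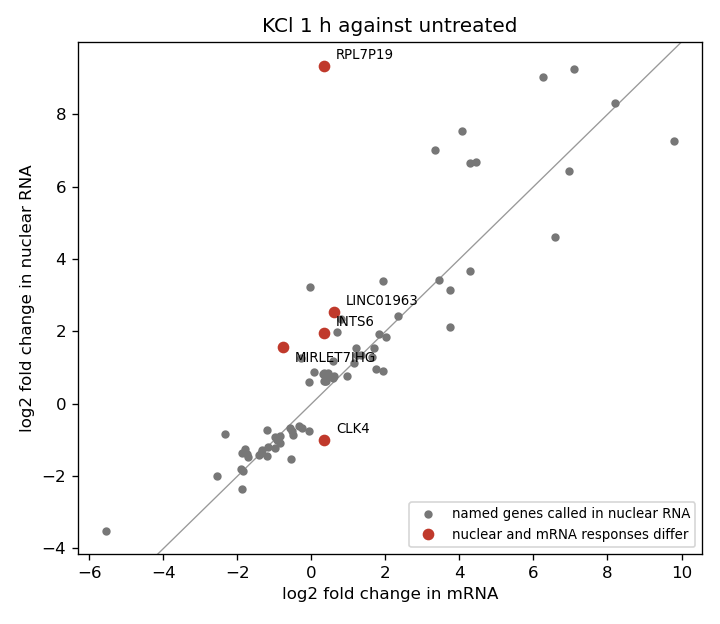
Log2 fold change of the named genes after 1 h of KCl in mRNA (x axis) and in nuclear RNA (y axis), with the line of equal change; red points are genes for which the interaction test was passed. INTS6 stands at 1.95 in nuclear RNA and 0.33 in mRNA, CLK4 at -1.0 and 0.34.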

How the data were processed

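Nuclear RNA of K562 cells was sequenced after rRNA depletion and mRNA after poly(A) selection. The authors mapped the reads with STAR to GRCh38.p14 and deposited gene counts from featureCounts, unnormalized and without strand, of uniquely mapped pairs. Raw counts were fitted over the 15 nuclear libraries with edgeR 4.0.16 (R 4.3.3; TMM, filterByExpr, robust quasi-likelihood test, 1 term per group). Calls needed p below 0.05 after Benjamini-Hochberg adjustment and a change of over 0.6 on the log2 scale. Symbols and classes came from GENCODE 44 (57532 of 58243 IDs). The members and gene lists were chosen with earlier results of these data known. Named genes were list members, the 10 largest rises and falls with 10 CPM or more and no overlap, the 5 strongest genes silent in CTRL and 5 genes within 10 kb behind an expressed gene. Same-numbered KCl and CTRL libraries deviated together (Pearson r 0.588 to 0.891 over 9308 genes), so replicate numbers were taken as pairs for values of single pairs. The main fit and the permutation test were unpaired, and only the fit with a replicate block used the pairs. The fits were tested on simulated data. Alternatives were DESeq2 1.42.0, other scaling factors, other count filters, no fold threshold, only the compared groups, a replicate block, thinned counts, omission of genes over 1% of counts and omission of each library. Counting intervals and the floor of 3 counts cover counting error only. 0 count columns had no sample. The p-values of the main fit rest on the spread between samples labelled as biological replicates, 3 per group. This spread was estimated over all 15 nuclear libraries, so it includes groups outside the comparison. With only the 2 compared groups in the fit, 4594 genes were called in place of 5227. Values of 1 further marker gene are not reported here.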

Additional observations from a re-analysis of the deposited data

Results flagged for a closer look

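By the test of the difference between nuclear RNA and mRNA, 5 named genes responded unequally to KCl. INTS6 had a nuclear minus mRNA log2 difference of 1.52 (adjusted p = 0.00203), CLK4 of -1.44 (adjusted p = 0.00455), LINC01963 of 1.81 (adjusted p = 0.0378) and MIRLET7IHG of 2.24 (adjusted p = 0.003). RPL7P19 had 8.97, a fitted value that depends on the prior count, with no read in nuclear CTRL and 2.48 to 3.40 CPM in mRNA CTRL. It is a pseudogene of a ribosomal protein gene, so its reads may be uncertain where copies are near-identical, although only uniquely mapped pairs were counted. RPL7P19 also starts 4429 bases behind EGR1 on the same strand. The source of its reads was not tested. Groups of 3 libraries were too small for the test of single outlying samples.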

How the results depend on the processing

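Counts of called genes depended mostly on the low-count filter. For KCl against CTRL, 5227 calls became 8022 (5744 higher) without a filter and 2324 (1252 higher, 1072 lower) over genes with a mean of 1 CPM or more. Leaving out 1 library gave 4899 to 5569 calls, with 3059 to 3688 higher and 1534 to 1933 lower. For KCl against JTE, 3489 calls became 5517 (4077 higher) and 1489 (749 higher, 740 lower) under the same filters, and leaving out 1 library gave 3159 to 3560, with 2033 to 2649 higher and 911 to 1126 lower. The count without a filter includes genes that the main test leaves out. The difference between nuclear RNA and mRNA was the least stable result. Its 141 calls (124 higher, 17 lower) became 393 (354 and 39) with DESeq2, 310 (232 and 78) with the replicate block and 86 (78 and 8) with thinned counts, and 8 lower over genes of 1 CPM or more. Leaving out 1 library gave 60 to 166, with 52 to 144 higher and 4 to 22 lower. The total was 74, 60 and 66 without nuclear CTRL replicate 1, 2 and 3, 67 without nuclear KCl replicate 3, 78 without mRNA CTRL replicate 3, and 81 and 76 without mRNA KCl replicate 1 and 2. The cause was not tested. The replicate block called 5683 genes for KCl against CTRL, and of the named genes it lost the call of ZNF529 and called ATF3, and changed no other call. No result with a test reversed, and 54 of 1362 values of named genes lost their call. Of 993 group medians under the alternatives, which have no test, 314 moved by over 1 SD of the 3 pairs, and 45 changed sign, all with a main median of at most 0.161 in size. Over genes with a mean of 1 CPM or more, the median was 0.35 in place of 1.11 for genes 10 to 50 kb behind an expressed gene, and -0.74 in place of -1.01 for nested genes at 10 to 30 kb. Depth limits genes at the lowest levels, most of which could not be tested.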

Other observations

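Of 82 tested cytosolic ribosomal protein genes 1 was higher and 3 lower, among them RPL36A (-1.35) and RPS10 (-0.73), which overlap other genes, and the median was 0.01. Of 422 tested ZNF genes 25 were higher (5.92%) and 21 lower (4.98%). Replication-dependent histone genes had 5 higher (9.62%) and none lower of 52, with H2BC6 at 0.76. Of all genes tested 15.3% were higher and 8.5% lower.

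Of 20 stress genes called higher, 16 had a RefSeq promoter window of 300 bases (GRCh38.p14), and none held the AP-1 motif TGACTCA on either strand, which 4.95% of all 35116 windows held. The cyclic AMP motif TGACGTCA was in 1 window, of ZFP36L1, and in 1.85% of all windows. Some of the 16 genes had more than 1 window. So few windows cannot show whether either motif is rarer or more common than in all windows.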
